A study of Homo sapiens with 19 samples.

Results

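The small leucine-rich proteoglycans of H1 cells are described here through 10 genes, LUM, DCN, BGN, FMOD, OGN, PRELP, ASPN, KERA, EPYC and OMD, out of 33382 genes listed in each sample. They were found by gene symbol, and each matched 1 row. The family was put forward because LUM was among the largest rises in cells without PRC2, so the members were chosen by their family with a measured rise of TPM over WT H1 cells in view, and that rise is given as a description.

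RNA-seq was analysed in 19 samples of H1, an established human embryonic stem cell line, to ask what the loss of PRC2 does to gene expression. There were 2 samples each of WT H1 cells and of 5 knockout lines. EZH1-/- H1 and EZH2-/- H1 cells lack 1 of the enzymes and EZH2-/-/EZH1-/- H1 cells lack both, EED-/- H1 cells lack EED, and SUZ12-/- H1 cells lack SUZ12. The knockouts were made by CRISPR/Cas9 with drug selection, and the samples of a line carry different clone or passage names, so the spread between them may include differences between clones. H1-EED-/-/EED-OE cells lack EED and carry a lentiviral EED transgene switched on by doxycycline (DOX), and were sampled once with DOX and once on each of days 8, 12, 16, 20, 24 and 28 without it. The title of the DOX-treated sample also names day 28. All 7 of these samples share the deletion and the transgene. PRC2 deposits H3K27me3, a histone mark of repressed genes, through EED, SUZ12 and either EZH1 or EZH2. By the study's account EED-/- H1 cells, SUZ12-/- H1 cells and the double knockout EZH2-/-/EZH1-/- H1 lost the mark, and are called the 3 PRC2-null lines here, while both single EZH knockouts kept it at a lower level than WT H1. The latter are grouped below with WT H1 as lines that retained the mark.

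Each library was deposited as TPM, a share of all transcripts corrected for their length that sums to 999999.2 to 1000001.0 per sample and holds no read depth. The targeting removed a functional domain and not the whole gene, so the TPM of a targeted gene checks nothing: EED was 14.25 and 22.4 in EED-/- H1 and 17.3 and 22.0 in WT H1 cells, SUZ12 was 20.8 and 22.9 in its knockout, EZH1 12.5 and 17.1 and EZH2 22.0 and 46.9 in theirs. EED was 108.5 with DOX and 12.6 to 31.6 after its withdrawal. All samples are labelled embryonic stem cells. POU5F1, which encodes the pluripotency factor OCT4, was 2428 to 3456 in WT H1, EZH1-/- H1 and EZH2-/- H1 samples and 3.62 to 149.8 in the 6 PRC2-null samples, so the label goes against the marker in those. In bulk RNA, fewer cells that express a gene and less RNA per cell cannot be told apart.

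Small leucine-rich proteoglycans are secreted proteins built around tandem leucine-rich repeats, and most carry chondroitin, dermatan or keratan sulfate chains. They bind collagen fibrils in connective tissue, where they govern fibril spacing and diameter, and several also bind growth factors or receptors. Class I holds DCN, BGN and ASPN, class II holds FMOD, LUM, PRELP, KERA and OMD, and class III holds EPYC and OGN. They are best known as products of fibroblasts and other cells of connective tissue.

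The genes stand mostly in clusters (GRCh38, GENCODE release 44). EPYC (chromosome 12, 90963682 to 91005026), KERA (91050491 to 91058024), LUM (91102629 to 91111494) and DCN (91140484 to 91183217) follow one another within 219.5 kb, all on the minus strand. KERA ends 44.6 kb from LUM, and LUM and DCN are 29.0 kb apart. OGN, OMD and ASPN lie within 99.2 kb on chromosome 9 (92383268 to 92482506), inside the span of CENPP on the opposite strand, with which their exons do not overlap. FMOD (203340628 to 203351758, minus strand) and PRELP (203475806 to 203491352, plus strand) lie 124.0 kb apart on chromosome 1. BGN (chromosome X, 153494980 to 153509546) stands alone and overlaps HAUS7 on the opposite strand outside exons.

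Promoter windows, 250 bases before to 50 after the start, were found for 6 of the 10 genes in RefSeq (GRCh38.p14). The windows of BGN, FMOD and PRELP are shown because these genes behaved differently among the null lines: FMOD was called higher in SUZ12-/- H1, PRELP reached a TPM of 1 in that line only, and BGN did not pass the test. CpG dinucleotides are in capitals, and each window reads 5′ to 3′ on the gene's strand.
BGN (chrX:153494730-153495029, plus strand): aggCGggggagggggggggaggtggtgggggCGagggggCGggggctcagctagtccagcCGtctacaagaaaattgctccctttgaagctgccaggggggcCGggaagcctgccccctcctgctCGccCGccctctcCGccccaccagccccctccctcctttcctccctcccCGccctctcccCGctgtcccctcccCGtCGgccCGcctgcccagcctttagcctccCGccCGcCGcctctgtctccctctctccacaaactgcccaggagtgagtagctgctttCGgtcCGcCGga
FMOD (chr1:203351073-203351372, minus strand): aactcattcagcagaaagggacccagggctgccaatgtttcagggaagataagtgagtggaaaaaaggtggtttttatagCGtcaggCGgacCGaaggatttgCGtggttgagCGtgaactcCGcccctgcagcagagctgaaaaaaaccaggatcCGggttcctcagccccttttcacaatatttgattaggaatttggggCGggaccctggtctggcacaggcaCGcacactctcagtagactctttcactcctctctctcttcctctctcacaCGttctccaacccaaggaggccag
PRELP (chr1:203475556-203475855, plus strand): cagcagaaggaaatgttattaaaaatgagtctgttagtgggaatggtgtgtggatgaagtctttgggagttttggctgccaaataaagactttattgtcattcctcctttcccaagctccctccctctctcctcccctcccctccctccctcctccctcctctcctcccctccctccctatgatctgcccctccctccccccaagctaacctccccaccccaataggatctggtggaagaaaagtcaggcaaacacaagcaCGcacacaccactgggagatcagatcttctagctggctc
The BGN window held 19 CpG and was 71.7% G or C. FMOD had 10 CpG at 52.3%, and PRELP 1 CpG at 52.7%. The ASPN window held 3 CpG, and the windows of EPYC and OGN (2 starts) held 0. The median over 35116 windows of the same length was 14 CpG. The letters TATAAA, searched on both strands, were in 11.5% of all windows and in those of FMOD, OGN and EPYC. GATAA, on both strands, was in 22.7% of all windows and, among the members, only in that of FMOD. The palindrome CANNTG was in 68.7% of all windows and in those of OGN and ASPN. No match overlaps one of another motif, and a match is a description of the letters only.

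LUM, lumican, a keratan sulfate proteoglycan best known from the cornea, had the highest level of the family in 5 of the 6 PRC2-null samples. Its TPM was 0.22 and 0.69 in WT H1 samples and was listed at 0 in all 4 samples of EZH1-/- H1 and EZH2-/- H1 cells. It was 739.6 and 646 in EED-/- H1, 4637 and 4406 in SUZ12-/- H1, and 318 and 369 in EZH2-/-/EZH1-/- H1 cells. No sample of these 3 lines overlapped a sample of another of them, and the order was SUZ12-/- H1, EED-/- H1, then EZH2-/-/EZH1-/- H1. Among 19100 genes tested, LUM was the rise ranked 2 in SUZ12-/- H1, 8 in EED-/- H1 and 13 in EZH2-/-/EZH1-/- H1 cells, which is what chose it.

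FMOD, fibromodulin, a class II relative of LUM that binds fibrillar collagen, was 0.60 and 0.68 in WT H1 cells, and 0.14 to 0.42 in EZH1-/- H1 and EZH2-/- H1 samples. It was 26.7 and 17.0 in EED-/- H1, 234 and 238 in SUZ12-/- H1, and 7.34 and 3.19 in EZH2-/-/EZH1-/- H1 cells. The order of the lines was that of LUM, again without overlap.

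PRELP, a class II protein with a basic, arginine- and proline-rich end, stayed low outside SUZ12-/- H1 cells. It was 4.80 and 5.30 in SUZ12-/- H1 samples, 0.85 and 0.76 in EED-/- H1, 0.64 and 0.75 in EZH2-/-/EZH1-/- H1, and 0.15 to 0.41 in the 6 samples of the other lines. KERA, keratocan, the class II proteoglycan of the cornea, was at most 0.10 in any of the 19 samples. It lies between EPYC and LUM. OMD, osteomodulin, a class II protein of bone, was listed at 0 in all 19.

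DCN, decorin, a class I proteoglycan that binds type I collagen and TGF-β, was 0.66 and 1.07 in WT H1 cells, 0.14 and 0.27 in EZH1-/- H1, and listed at 0 in both EZH2-/- H1 samples. It was 30.9 and 26.3 in EED-/- H1, 2165 and 2287 in SUZ12-/- H1, and 10.7 and 5.26 in EZH2-/-/EZH1-/- H1 cells. The SUZ12-/- H1 samples stood far above the other null samples.

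BGN, biglycan, the class I relative of DCN, was the one member that reached a TPM of 1 in every one of the 12 samples of the 6 lines. It was 5.77 and 1.80 in WT H1, 3.71 and 4.56 in EZH1-/- H1, and 2.50 and 1.78 in EZH2-/- H1 cells. It was 687 and 441 in EED-/- H1, 338 and 356 in SUZ12-/- H1, and 598 and 315 in EZH2-/-/EZH1-/- H1 cells. The EZH2-/-/EZH1-/- H1 samples bracketed those of SUZ12-/- H1, so no order among the null lines could be read. ASPN, asporin, a class I protein of cartilage and periodontal ligament, was listed at 0 in all 6 samples that retained H3K27me3. It was 1.36 and 0.29 in EED-/- H1, 2.49 and 2.30 in SUZ12-/- H1, and 0.18 and 0.27 in EZH2-/-/EZH1-/- H1 cells. Of class III, OGN, osteoglycin, was 1.93 and 0.12 in the EED-/- H1 samples and at most 0.48 elsewhere, and EPYC, epiphycan, a cartilage protein, was above 0 in 3 of 19 samples, at 0.92 and 0.37 in SUZ12-/- H1 and 0.18 in 1 EED-/- H1 sample.

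**Figure D1:**
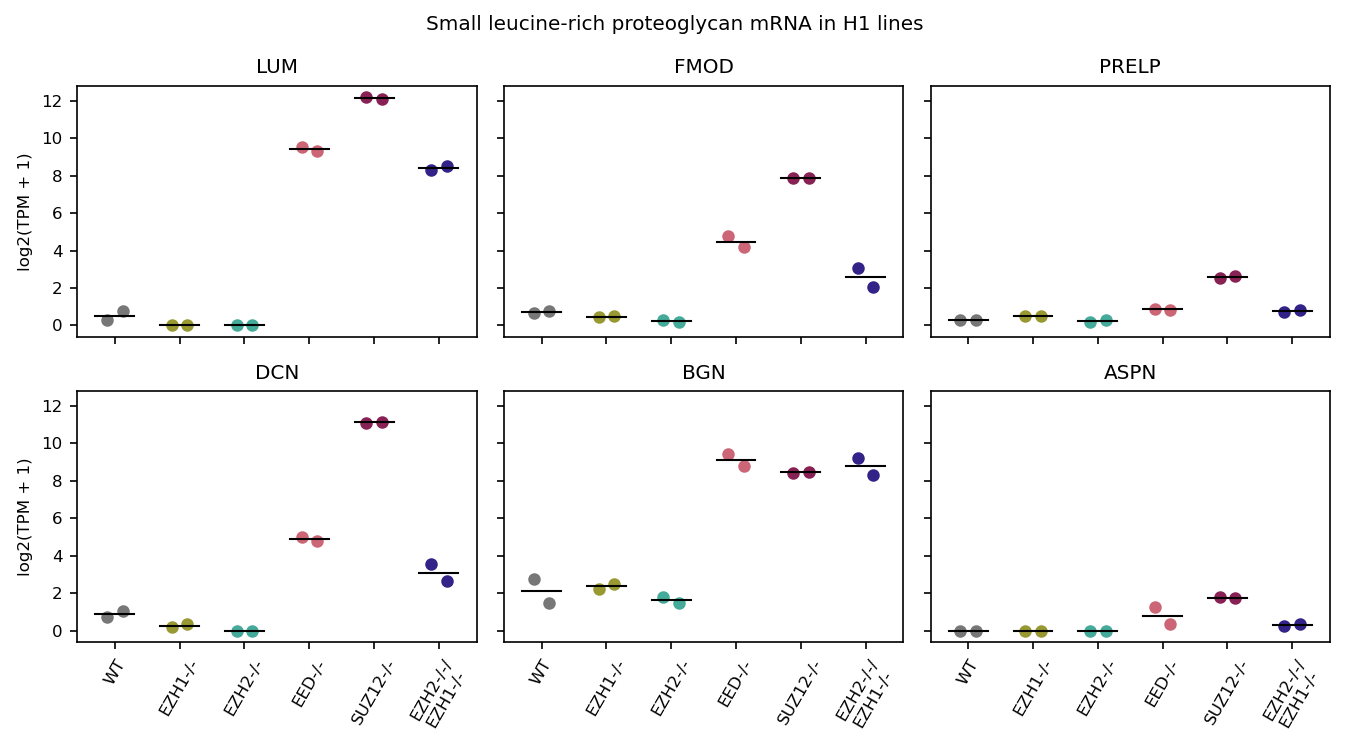
Levels of 6 members in the 6 lines, as log2(TPM + 1), with both samples of a line as points and their mean as a bar. LUM, FMOD and DCN form 3 separate steps in the PRC2-null lines with SUZ12-/- H1 highest, BGN overlaps between them, and PRELP and ASPN stay below 3 on this scale.

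For tests, a gene had to reach a TPM of 1 in 2 or more of the 12 samples of the lines. LUM, DCN, BGN, FMOD, PRELP and ASPN passed, and OGN, KERA, EPYC and OMD did not. LUM, FMOD, PRELP and ASPN had no sample of at least 1 outside the PRC2-null lines and DCN had 1, so passing required them to be high there. A gene was called where limma on log2(TPM + 1) gave a fold of 3 or more with an adjusted p (Benjamini-Hochberg) no higher than 0.01, where differences understate the change of low genes. Against WT H1, LUM, DCN, BGN and FMOD were called higher in EED-/- H1 (16.2% of all genes tested were called higher) and in EZH2-/-/EZH1-/- H1 cells (11.6%), and all 6 in SUZ12-/- H1 cells (14.5%). Rescaling the TPM by median ratios changed the split of all calls in EED-/- H1 cells from 3099 higher and 1164 lower to 2312 and 1672. The members' counts follow from how the family was chosen, and nothing is read from them. The log2 differences from WT H1 were, for LUM, 11.62 in SUZ12-/- H1, 8.91 in EED-/- H1 and 7.90 for the double knockout (SE 0.21). For BGN they were 6.32, 6.98 and 6.64 in the same order (SE 0.41). Those of DCN were 10.23, 3.99 and 2.21 (SE 0.31), and those of FMOD 7.18, 3.77 and 1.85 (SE 0.34). Within SUZ12-/- H1 cells the smallest called rises were ASPN at 1.76 (SE 0.28) and PRELP at 2.30 (SE 0.22). PRELP and ASPN were not called in the 2 other null lines, at 0.29 to 0.80, under the fold of 3.

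In cells without EZH1 or without EZH2, which retained H3K27me3, no member passed the test in limma. The count was 0 of 6 in EZH1-/- H1 against WT H1 (0.0995% of all genes called in either direction), 0 in EZH2-/- H1 (0%) and 0 between the 2 knockouts (0.0838%). At an unadjusted p under 0.05 there were 1, 2 and 0 members, beside 16.0%, 5.81% and 12.4% of all genes. These were LUM in both knockouts, with a log2 difference of -0.52 (adjusted p = 0.249 without EZH1 and 0.785 without EZH2), and DCN in EZH2-/- H1 cells, at -0.89 (adjusted p = 0.632, limma). LUM was listed at 0 in all samples of both knockouts, and DCN in both EZH2-/- H1 samples. These differences are therefore the largest falls possible from the WT H1 levels, which were near 0. The intervals run past that limit, from -0.98 to -0.06 for LUM and from -1.56 to -0.22 for DCN in EZH2-/- H1 cells. Mean WT H1 TPM was at most 0.865 for LUM, DCN, FMOD, PRELP and ASPN, too low for a fall to be called. For these members the counts against WT H1 speak only to a rise. BGN, which is measurable in WT H1 cells, differed by 0.23 in EZH1-/- H1 (95% interval -0.68 to 1.14) and -0.48 in EZH2-/- H1 cells (-1.39 to 0.43).

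The 3 PRC2-null lines differed among themselves. DCN and FMOD were called higher in SUZ12-/- H1 than in EED-/- H1 cells, where 3.54% of all genes were called higher, and than in EZH2-/-/EZH1-/- H1 cells, where 3.32% were. LUM and PRELP also passed the threshold in both contrasts but are given as a description. LUM was put forward for its rise in these samples, and PRELP passed the filter on low values only through the 2 SUZ12-/- H1 samples, so nothing is read from the count of members called. Over all genes, 676 were higher and 493 lower in SUZ12-/- H1 than in EED-/- H1 cells, and 802 and 343 after rescaling. Mean DCN was 2226 ± 86.5 in SUZ12-/- H1, 28.6 ± 3.26 in EED-/- H1 cells and, in the EZH2-/-/EZH1-/- H1 line, 8.00 ± 3.87 (SD, n = 2), which is 77.8 and 278 times the level of the other lines. Its log2 difference was 6.24 from EED-/- H1 (95% interval 5.56 to 6.91, adjusted p = 2.49e-06) and 8.02 from EZH2-/-/EZH1-/- H1 cells (7.35 to 8.69, adjusted p = 4.43e-07, limma). Of all genes tested, DCN ranked 8 and 2 among the differences in favour of SUZ12-/- H1.

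FMOD was 10.8 times as high in SUZ12-/- H1 as in EED-/- H1 cells and 44.8 times as high as in EZH2-/-/EZH1-/- H1 cells, with log2 differences of 3.41 (adjusted p = 8.32e-05) and 5.33 (adjusted p = 6.18e-06, limma). LUM was 6.53 and 13.2 times as high, with log2 differences of 2.71 and 3.72 (SE 0.21). PRELP differed by 1.74 and 1.84 (SE 0.22). ASPN differed by 0.96 from EED-/- H1 and by 1.47 from EZH2-/-/EZH1-/- H1 cells (SE 0.28), under the fold of 3 in both. It too passed the filter on low values only with the SUZ12-/- H1 samples, so its values are a description. BGN did not follow: its log2 difference in SUZ12-/- H1 was -0.66 from EED-/- H1 (-1.57 to 0.24, adjusted p = 0.296) and -0.32 from EZH2-/-/EZH1-/- H1 cells (-1.23 to 0.58, adjusted p = 0.656).

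No member was called between EZH2-/-/EZH1-/- H1 and EED-/- H1 cells in limma, where 0.089% of all genes were called in either direction, and 3 had an unadjusted p under 0.05, as 20.1% of all genes had. They were DCN at -1.78 (adjusted p = 0.0309), FMOD at -1.92 (adjusted p = 0.0357) and LUM at -1.01 (adjusted p = 0.0563), all lower in EZH2-/-/EZH1-/- H1 cells. Without EZH2-/-/EZH1-/- H1 replicate 1, DCN and FMOD were called lower, and the share of all genes called in either direction was 3.89% in place of 0.089%. Fitted alone, the 4 samples of SUZ12-/- H1 and EZH2-/-/EZH1-/- H1 cells gave 3 called genes in all and 0 members, with adjusted p of 0.0171 for DCN and 0.0271 for FMOD and the same differences. The 2 SUZ12-/- H1 samples were the closest replicates, with a median gap of 0.0884 on the log2 scale over genes of at least 10 TPM, against 0.134 to 0.505 in the other lines.

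Markers of other cell types moved with the SUZ12-/- H1 samples. The 6 liver and yolk sac endoderm markers summed to 21110 to 21966 TPM there, against 1401 to 3994 in EED-/- H1 and 2679 to 3069 in EZH2-/-/EZH1-/- H1 cells, and 4 of the 6 (AFP, FGB, APOB and APOA1) were called higher in SUZ12-/- H1 in both contrasts. AFP, the fetal serum protein, was 13208 and 13695 in SUZ12-/- H1 cells and 163 to 768 in the other null samples. Of the corneal keratocyte markers, PTGDS was 452 and 458 in SUZ12-/- H1 and 3.32 to 9.64 in the other null samples, while KERA was at most 0.10 and ALDH3A1 at most 1.79. The 9 mesenchyme markers summed to 4409 to 4438 in SUZ12-/- H1, 6192 to 8792 in EED-/- H1 and 4656 to 4745 in EZH2-/-/EZH1-/- H1 cells, a sum made up mostly of VIM (mean 3369, 6743 and 4087). The other 8 had their highest mean in SUZ12-/- H1, where PDGFRA and FOXF1 were called higher in both contrasts and PRRX1 higher than in EED-/- H1 cells. Mean PDGFRA was 55.5, 14.0 and 12.1 in that order. The 5 smooth muscle markers summed to 1151 to 1174, 4075 to 4545 and 4244 to 5314 in that order, with MYH11 at most 1.38 in the 6 samples. TAGLN and CNN1 were called lower in SUZ12-/- H1 in both contrasts, while DES, desmin, was called higher in both, at 133 and 144 against 2.21 to 3.20 in the other null samples (log2 differences 5.20 and 5.25). The part of these cells in the higher DCN, FMOD, LUM and PRELP was not tested.

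The other marker lists did not sum higher in SUZ12-/- H1 than in both other lines. Their summed TPM in SUZ12-/- H1, EED-/- H1 and EZH2-/-/EZH1-/- H1 cells was 147 to 157, 318 to 489 and 52.4 to 174 for endothelium, 44.8 to 45.6, 87.0 to 110 and 50.8 to 92.0 for cartilage, and 4.74 to 5.23, 8.72 to 26.7 and 10.8 to 29.7 for tendon. Epithelial markers summed to 3461 to 3535, 4806 to 10119 and 7717 to 9037, and pluripotency markers to 175 to 259, 118 to 241 and 309 to 444, with 3 of 6 (POU5F1, NANOG and DPPA4) called higher in SUZ12-/- H1 than in EED-/- H1 cells. In WT H1, EZH1-/- H1 and EZH2-/- H1 samples pluripotency markers summed to 4945 to 6102 and mesenchyme markers to 464 to 891. THY1 was 347 to 688 in those samples and 50.1 to 212 in the PRC2-null samples, so it went against the other mesenchyme markers.

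The family differed in make-up as well as in level. The summed TPM of the 10 genes was 2.14 to 7.50 in the 6 samples that retained H3K27me3, 1132 and 1489 in EED-/- H1, 694 and 935 in EZH2-/-/EZH1-/- H1, and 7295 and 7383 in SUZ12-/- H1 cells. DCN held 29.3 and 31.3% of that sum in SUZ12-/- H1, 2.08 and 2.33% in EED-/- H1, and 1.15 and 0.758% in EZH2-/-/EZH1-/- H1 cells. BGN held 4.58 and 4.88% in SUZ12-/- H1, 46.2 and 38.9% in EED-/- H1, and 64.0 and 45.4% in EZH2-/-/EZH1-/- H1 cells. LUM held 34.0 to 62.8% in all 6 null samples. In the samples that retained H3K27me3, BGN held 40.2 to 87.1% of a sum near 0.

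After DOX withdrawal LUM, DCN, BGN and FMOD were highest at day 24 or day 28, with 1 sample at each time and no test. LUM was 1.23 with DOX, 0.87 at day 8, listed at 0 at days 12 and 16, 0.54 at day 20, 277 at day 24 and 361 at day 28. Day 20 lay within the WT H1 values and day 28 within those of EZH2-/-/EZH1-/- H1 cells. BGN was 8.50 with DOX, then 13.8, 26.6, 12.6 and 31.9 at days 8 to 20, 954 at day 24 and 753 at day 28. BGN at days 8 to 20 was thus above its level with DOX and its WT H1 level at each time.

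FMOD was 0.34 with DOX and 0.07 to 0.48 through day 16, then 9.43 at day 20, 30.0 at day 24 and 11.5 at day 28. At day 20 FMOD was therefore above both EZH2-/-/EZH1-/- H1 samples (7.34 and 3.19) and below both EED-/- H1 samples (26.7 and 17.0), while LUM was below all PRC2-null samples. DCN was listed at 0 with DOX and through day 16, and was 0.52, 3.34 and 10.4 at days 20, 24 and 28. PRELP moved between 0.27 and 2.09 with no direction, and ASPN was above 0 only at day 24, at 0.12. OGN was 0.30 at day 24 and 0.48 at day 28, and KERA, EPYC and OMD stayed at or near 0.

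Of the 5 members that reached a TPM of 1 in 2 or more of the 7 samples, 0 were at least 3-fold above the DOX sample in TPM + 1 at days 8, 12 and 16, where 2.93%, 3.08% and 4.13% of 17245 genes were. At day 20 there were 2, BGN and FMOD (9.62% of genes), and at days 24 and 28 there were 4, LUM, BGN, FMOD and DCN (13.9% and 18.8%). The log2 difference from the DOX sample at day 24 was 6.96 for LUM, 6.65 for BGN and 4.53 for FMOD. Pluripotency markers summed to 4707 with DOX, 2541 at day 20, 416 at day 24 and 420 at day 28, and mesenchyme markers to 1163, 938, 6527 and 5074 at the same times. THY1 made up 909 of the mesenchyme sum with DOX and was 219 at day 20. Each other mesenchyme marker was higher at day 20 than with DOX, with TWIST1 at 0.28 and then 29.3, and PDGFRA at 0.70 and then 12.8. Smooth muscle markers summed to 364, 455, 2780 and 3817 at those times, endothelial to 44.1, 151, 551 and 318, epithelial to 1428, 4406, 10239 and 10338, and liver and yolk sac endoderm to 4.39, 104, 399 and 1167. KDR was 146 of the endothelial sum at day 20, when TEK and ERG were lower than with DOX. KRT8 and KRT18 made up most of the epithelial sums. CDH1 was 64.5 with DOX and 45.7 and 63.4 at days 24 and 28, and EPCAM 180, 156 and 501. Cartilage markers summed to 23.1, 65.9, 70.1 and 124, tendon markers to at most 9.26 and corneal keratocyte markers to at most 3.75. Most of these lists thus summed higher at days 24 and 28 together with the members, though not each marker in them did. Their part in the members' levels was not tested. At day 28 the values stood beside those of EED-/- H1 cells, which lack the same subunit, as follows: BGN 753 against 441 and 687, LUM 361 against 646 and 740, DCN 10.4 against 26.3 and 30.9, and FMOD 11.5 against 17.0 and 26.7. LUM, DCN and FMOD were below both EED-/- H1 samples and BGN above both.

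Genes with the most similar profile were ranked by Pearson's r of log2(TPM + 1) over the 19 samples, among 12516 genes that reached a TPM of 10 in 2 or more samples. The samples of a line share their genotype, so r mostly reflects the lines, and it is given as a description. The 5 nearest to LUM were COL3A1, the type III collagen chain (r = 0.992), VTN, vitronectin (0.991), AQP1, a water channel (0.990), GBP2, an interferon-induced GTPase (0.987), and DNM3OS, a non-coding RNA (0.981). Those of DCN were APOA4, an apolipoprotein (0.993), AGTR1, an angiotensin receptor (0.985), MGP, matrix Gla protein (0.985), SULT2A1, a sulfotransferase (0.982), and SERPIND1, heparin cofactor II (0.979). BGN was nearest to ACTA2, smooth muscle actin (0.984), RP11-130L8.1 (0.984), EHD2, a caveolar ATPase (0.983), GSTK1 (0.983) and PHC2 (0.982). FMOD was nearest to TCF21, a mesenchymal transcription factor (0.990), CLIC3 (0.971), IL1R1, the interleukin receptor (0.971), AQP3 (0.970) and MAN1A1 (0.967). No member was among the 5 nearest of another. Among members, r was 0.928 between DCN and FMOD, 0.914 between LUM and BGN, and 0.672 between DCN and BGN.

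Neighbours of the clusters went in different directions or changed little. BTG2, an antiproliferative gene 31.0 kb beyond FMOD, was 1.53 to 2.60 in WT H1 and 73.4 to 109.4 in the PRC2-null samples. OPTC, opticin, a class III relative 2.80 kb beyond PRELP, went the other way, at 1.79 and 2.73 in WT H1 and 0 to 0.16 in the null samples. ECM2, a leucine-rich matrix protein 11.0 kb beyond ASPN, was listed at 0 in WT H1, and was 6.15 and 8.84 in SUZ12-/- H1, 0.79 and 1.13 in EED-/- H1, and 0.20 and 0.75 in EZH2-/-/EZH1-/- H1 cells. CCER1, 8.51 kb beyond EPYC, was at most 0.05 in the lines. BTG1, 957 kb beyond DCN, was 5.19 and 9.52 in WT H1 and 29.4 to 68.0 in the null samples. HAUS7, which overlaps BGN, was 50.3 and 51.0 in WT H1 and 14.9 to 20.2 in the null samples. CENPP was 10.8 and 11.9 in WT H1 and 3.16 to 8.71 in the null samples. NOL8, 57.6 kb beyond OGN, was 26.9 and 33.7 in WT H1 and 18.0 to 29.8 in the null samples. On either side of BGN, TREX2 was at most 0.70 and ATP2B3 at most 0.50 in the lines.

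Genes that build, load or bind these proteoglycans were taken from 10 lists of 78 genes, of which 76 could be tested, in the mean of the null lines minus WT H1. Of these, 38 rose and 3 fell, beside 13.6% and 5.36% of all genes called higher and lower. The lists were chosen with earlier results of these data known, so the counts are a description. The median over all genes was a log2 difference of 0.28, so differences are best read against that shift.

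Among fibrillar collagens, the partners of these proteoglycans, 8 of 9 rose, with a median log2 difference of 5.21. COL3A1 was 0.11 and 0.22 in WT H1 and 961 to 11279 in the null samples (log2 difference 11.47), COL5A1 rose by 6.85 and COL1A1 by 5.99. COL3A1 was also called higher in SUZ12-/- H1 than in both other null lines. COL11A1 went the other way and was called lower in both contrasts. Its mean was 127 in SUZ12-/- H1, 539 in EED-/- H1 and 572 in EZH2-/-/EZH1-/- H1 cells. Of 5 lysyl oxidases, which cross-link collagen, 4 rose, with LOX at 6.25, LOXL4 at 4.81 and LOXL1 at 3.14. Of 5 genes that process collagen propeptides, 3 rose: BMP1, the protease that also trims the propeptides of several members (4.82), TLL1 (2.74) and PCOLCE (1.99).

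Of the chondroitin and dermatan sulfate enzymes, 8 of 16 rose and 0 fell, with CSGALNACT1, which starts chondroitin chains, at 4.31, CHPF2 at 2.84 and CHSY3 at 2.59. Of the 6 enzymes of the linker region, which joins the chain to the protein, 0 were called in limma, and their median was 0.84. An unadjusted p under 0.05 was reached by 4, as by 61.2% of all genes. An adjusted p of at most 0.01 was reached by 3, with rises under the fold of 3. In single lines against WT H1, 2 were called higher in EED-/- H1 (16.2% of all genes), 1 in EZH2-/-/EZH1-/- H1 (11.6%) and 0 in SUZ12-/- H1 cells (14.5%). Among 7 keratan sulfate enzymes 2 rose, B4GALT1 (2.82) and CHST1 (2.50), and 2 fell, CHST4 by 3.28 and B3GNT7 by 1.74. Of 5 genes of sulfate supply 3 rose, SLC35B3 (2.41), SLC26A2 (2.28) and PAPSS2 (1.81). Chains themselves were not measured.

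Of 12 ligands and receptors bound by members, 8 rose, with TGFB2 at 5.23, TGFB1 at 4.18 and TGFB3 at 4.02. TGFB2 was called lower in SUZ12-/- H1 than in each other null line, while TGFB1 and TGFB3 were called in neither contrast. ITGA2 and IGF1R were called lower than in EED-/- H1 cells only. TGFB2 was 18.0 and 19.6 in SUZ12-/- H1, against 113 and 124 in EED-/- H1 with 64.7 and 88.1 in the double knockout. Of 4 hyalectans, the large proteoglycans that bind hyaluronan, VCAN rose (1.84). Of 7 other leucine-rich matrix proteins, PODN, podocan, rose (4.42) and OPTC fell by 1.65. ECM2 and CHAD, chondroadherin, also passed the threshold for a higher level in SUZ12-/- H1 than in each of the other null lines. Both were named after their values were seen, and ECM2 passed the filter on low values only with the SUZ12-/- H1 samples. Their values are therefore a description. CHAD was 5.04 and 5.60 in SUZ12-/- H1 and 0.52 to 0.78 in the other null samples.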

How the data were processed

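The authors prepared TruSeq RNA libraries, aligned reads with Bowtie2 to the GRCh38 mRNA reference, quantified them with RSEM and deposited TPM for each sample. Strand was not given in the sources used here. TPM holds no depth, so precision rests on the 2 samples per line, and no interval from counting could be given. Where nothing says that samples came from separate cultures, p-values measure only the spread between them.

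TPM was used as log2(TPM + 1). limma 3.58.1 (R 4.3.3, lmFit, contrasts.fit, eBayes with trend and robust) was fitted to the 19100 genes that reached a TPM of 1 in 2 or more of 12 samples, with a mean per line and 6 residual degrees of freedom, and adjusted over all genes by Benjamini-Hochberg. Genes were called at an adjusted p of at most 0.01 and a fold of at least 3. The time course, with 1 sample per point, was not tested. The fit was tested on simulated data in which known genes changed. The members and gene lists were chosen with earlier results of these data known. Named genes were all members, up to 3 called genes per list with the largest differences, the 5 most similar genes per member that reached a TPM of 10 in 2 or more samples, targeted genes, POU5F1 and markers. Other neighbours of the clusters, and ECM2, CHAD, COL11A1, ITGA2 and IGF1R, were named after their values were seen. Promoters came from RefSeq on GRCh38.p14. Alternatives were a pseudocount of 0.1, 2 other filters, rescaling by median ratios, fits of 4 samples, another threshold and leaving out each sample. Python 3.11.15 with numpy 2.4.6, pandas 2.3.3 and matplotlib 3.10.9 was used.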

Additional observations from a re-analysis of the deposited data

Results flagged for a closer look

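The PRC2-null lines differed by a direct test in limma for DCN and FMOD, both higher in SUZ12-/- H1 cells. LUM and PRELP passed the same threshold, but LUM was put forward for its rise in these samples and PRELP passed the filter on low values only through them, so their values are a description. Against EED-/- H1 the log2 differences were 6.24 for DCN, 3.41 for FMOD, 2.71 for LUM and 1.74 for PRELP, and against EZH2-/-/EZH1-/- H1 cells they were 8.02, 5.33, 3.72 and 1.84. Both samples of SUZ12-/- H1 were above both samples of each other line for all 4 genes. These are the members called higher there, and the share of all genes separated in this way was not counted, so nothing is read from it.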

How the results depend on the processing

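No called difference of a member between the null lines reversed under the alternatives, and the differences of DCN, FMOD and LUM between SUZ12-/- H1 and EED-/- H1 cells passed the threshold in all of them. Some counts of members moved by over 1.5 times. Fits of only 4 samples called 2 members in EZH2-/-/EZH1-/- H1 against WT H1 (4 in the fit of 12) and 0 between SUZ12-/- H1 and EZH2-/-/EZH1-/- H1 cells (4). In that last fit the smallest adjusted p among the members was 0.0171. PRELP also lost its call between SUZ12-/- H1 and EED-/- H1 cells in the fit of 4 samples (adjusted p = 0.0117), and could not be tested where the filter removed it. Between EZH2-/-/EZH1-/- H1 and EED-/- H1 cells, 2 members were called at an adjusted p of 0.05 without a fold cutoff, and 0 to 2 with 1 sample left out. The genes of the lists called lower numbered 3, and 7 at that threshold, 5 with a pseudocount of 0.1 and 1 to 3 with 1 sample left out, 1 being without WT H1 replicate 1. With WT H1 as reference, 1 member (BGN) was at least 3-fold higher at each of days 8, 12 and 16, as 1 was at day 12 with a pseudocount of 0.1. At day 20, 1 member was after rescaling, in place of 2. Averaging the SUZ12-/- H1 samples to 1, chosen after seeing the data, changed the genes called higher than in EED-/- H1 from 676 to 241. The cause of these changes was not tested. No paired analysis was possible because the labels give clone or passage names rather than replicate numbers, and the numbers used here only name the samples in the order listed. The absence of read counts limits what can be said of genes under 1 TPM.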
